A study of Mus musculus with 2 samples.

Results

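The cell cycle module examined here was a fixed list of 40 genes that cycling cells switch on, followed over the T cell states, macrophages and tumour cells of a mouse melanoma. All 40 were rows of the deposited count table, out of 27635 genes. They were split by textbook role into 17 genes of DNA replication, called the S list, and 22 genes of chromosome condensation and mitosis, called the G2M list. Stmn1, which binds tubulin, was kept outside both lists. The rule for the list names genes and uses no measured value, but the members and lists were chosen with earlier results of these data known.

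The cells came from subcutaneous B16F10 tumours, a transplantable melanoma line of C57BL/6 origin, taken 14 days after transplantation. CD3-bearing cells were enriched with magnetic beads after a Percoll step, and wild-type and Nr4a-deficient cells, marked by hashtag antibodies, shared 1 BD Rhapsody capture of about 20000 cells. Nr4a genes encode orphan nuclear receptors induced by antigen receptor signals, and the title of the series names Nr4a1 and Nr4a2 and Tcf7-expressing precursors of exhausted CD8 T cells. The labels do not say which hashtag marked which genotype, and the driver of the deletion, the strain and the age of the mice are not given in the sources used here. No genotype was compared, and every value below is for cells of both genotypes together or for a hashtag of unknown genotype.

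A cell that commits to division first makes E-type cyclins, loads and fires replication origins and makes nucleotides. It then builds up A- and B-type cyclins with Cdk1, condenses its chromosomes and pulls them apart on a spindle. E2F factors drive the early wave from sites of their own, while many late genes are held by the DREAM and MuvB complexes at a cell cycle homology region (CHR) beside CCAAT boxes bound by NF-Y. In tumours, expansion of CD8 T cells that carry exhaustion receptors such as Havcr2 (Tim-3) runs alongside a smaller pool of Tcf7-expressing cells known for self-renewal.

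The early and the late genes differed in their promoters, read here from RefSeq on GRCm38.p6 as 250 bases before to 50 bases after the start site, without any count data. Of the 40 members 32 had an entry, 14 of the S list and 18 of the G2M list; Aurkb, Ccna2, Ccne2, Gins2, Kif20a, Mcm4, Stmn1 and Tpx2 did not. Searched on both strands, a CHR written TTTGAA or TTTAAA was held by 16 of the 18 G2M promoters and 6 of the 14 S promoters, against 30.6% of the 27025 genes in the table. CCAAT was held by 16 of 18 and 10 of 14, against 41.1%. CHR and CCAAT stood together in 15 of the 18 G2M promoters and 5 of the 14 S promoters, against 13.4%. An E2F site written TTTCCCGC, TTTGGCGC, TTTCGCGC or TTTGCCGC was held by 8 of the 14 S promoters and 1 of the 18 G2M promoters (Cdk1), against 2.61% of all genes. These E2F letters can overlap each other on opposite strands, a gene was counted if any of its start regions held the letters, and a match describes the letters, not binding. Promoters of 2 late and 2 early genes that show the contrast are printed 5′ to 3′ on the gene's strand, with the matches in capitals. Ccnb1 (chr13:100786437-100786736, minus strand) and Cdc20 (chr4:118437294-118437593, minus strand) hold a CHR and 2 CCAAT boxes each, and Mcm5 (chr8:75109259-75109558, plus strand) and Mcm6 (chr1:128359656-128359955, minus strand) hold overlapping E2F sites and CCAAT boxes.
Ccnb1: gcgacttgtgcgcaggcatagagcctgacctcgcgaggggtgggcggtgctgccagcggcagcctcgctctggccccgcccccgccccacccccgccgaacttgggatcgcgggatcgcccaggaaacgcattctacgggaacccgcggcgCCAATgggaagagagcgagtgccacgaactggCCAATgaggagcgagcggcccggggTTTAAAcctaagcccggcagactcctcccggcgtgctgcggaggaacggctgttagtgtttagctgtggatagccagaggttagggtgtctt
Cdc20: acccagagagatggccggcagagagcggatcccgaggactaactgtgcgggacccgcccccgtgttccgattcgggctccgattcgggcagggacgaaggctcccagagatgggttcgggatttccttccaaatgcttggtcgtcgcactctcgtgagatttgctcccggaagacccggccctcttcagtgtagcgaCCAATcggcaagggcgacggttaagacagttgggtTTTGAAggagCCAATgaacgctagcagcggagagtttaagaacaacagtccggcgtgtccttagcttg
Mcm5: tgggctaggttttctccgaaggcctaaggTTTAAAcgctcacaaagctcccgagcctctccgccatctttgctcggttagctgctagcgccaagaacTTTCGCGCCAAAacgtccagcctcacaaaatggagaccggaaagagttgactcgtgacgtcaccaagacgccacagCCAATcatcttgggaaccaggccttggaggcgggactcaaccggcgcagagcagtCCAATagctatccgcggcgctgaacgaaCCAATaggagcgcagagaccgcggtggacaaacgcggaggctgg
Mcm6: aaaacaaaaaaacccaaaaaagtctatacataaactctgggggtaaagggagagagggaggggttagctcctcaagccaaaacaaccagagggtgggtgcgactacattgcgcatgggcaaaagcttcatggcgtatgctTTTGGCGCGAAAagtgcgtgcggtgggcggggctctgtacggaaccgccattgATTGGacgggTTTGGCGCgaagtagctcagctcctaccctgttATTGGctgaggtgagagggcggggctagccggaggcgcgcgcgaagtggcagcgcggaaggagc
In Mcm5 the 2 E2F sites overlap within 1 run of capitals, and a CHR stands far upstream of them. In Mcm6 2 E2F sites overlap and the third stands beside a CCAAT box, here read on the other strand as ATTGG.

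**Figure D1:**
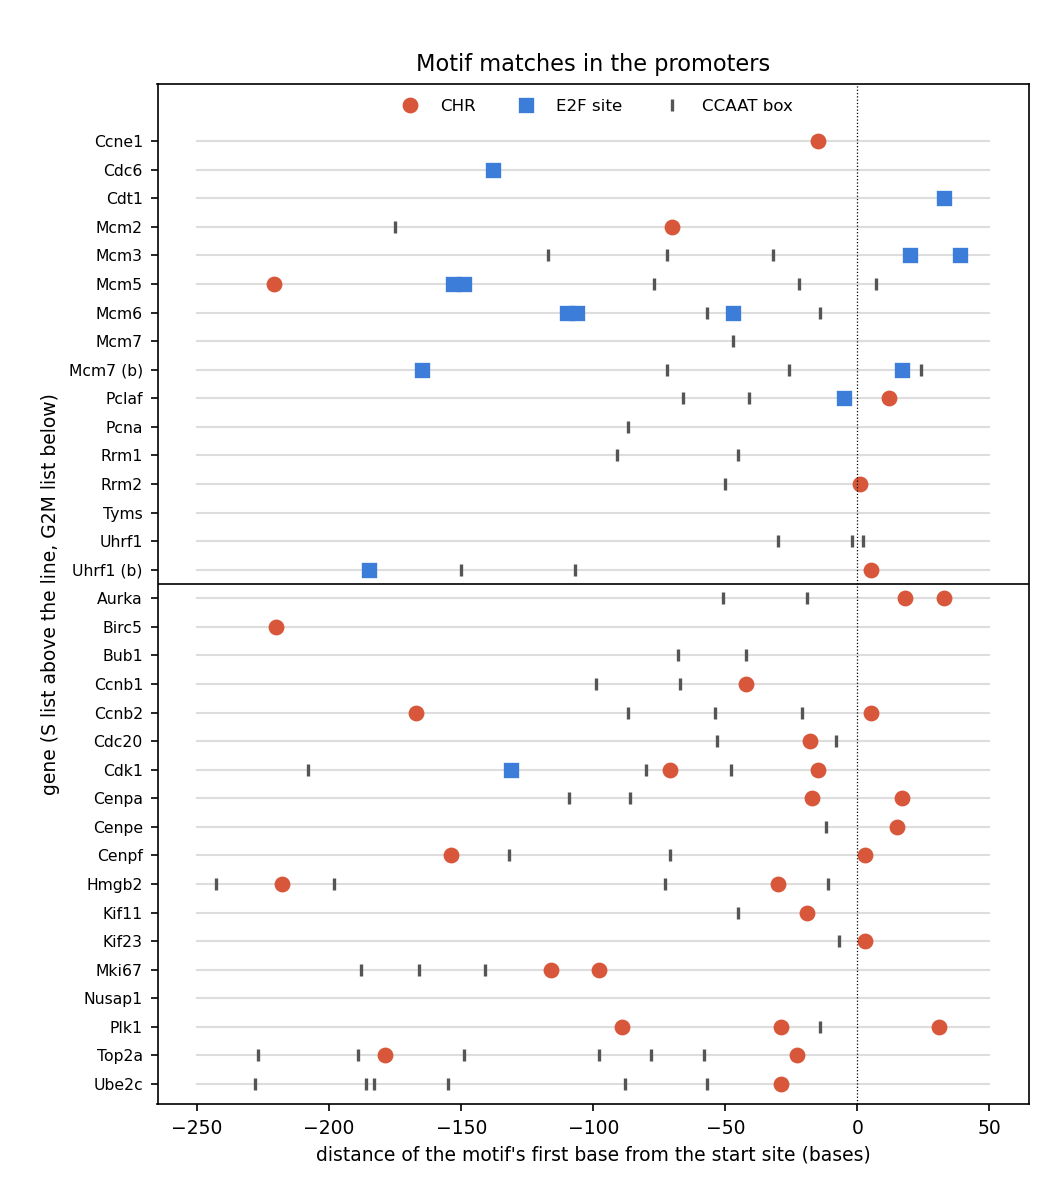
Position of CHR, CCAAT and E2F matches in the promoters of the 32 members with a RefSeq entry, as distance in bases of the motif's first base from the start site (the dotted line at 0); a gene with 2 start regions has 2 lines, the second marked (b). CHR matches fill the G2M list below the black line, where 16 of 18 genes have one, and E2F matches the S list above it, where 8 of 14 have one.

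Of 12016 barcodes in the count table, 11318 had at least 500 genes and at most 25% mitochondrial counts. Counts per barcode ran from 4138 to 892142 with a median of 25960.5. Clusters were formed without the members, other listed cell cycle genes and histone genes, so that these genes did not choose the classes directly. Inside T cell-like clusters, CD8 cells (Cd8a or Cd8b1, no Cd4) were split at 5 raw counts into a Gzmf arm (no Tcf7), a Havcr2 arm (no Tcf7, no Gzmf) and a Tcf7 arm (no Havcr2, no Gzmf), and CD4 cells by Foxp3, the factor of regulatory T cells. The Tcf7 arm lay mostly in clusters 3, 0 and 1 (41.6%, 26.4% and 25.04%) and the Havcr2 arm in cluster 5 (90.8%). Of the Gzmf arm 59.0% also lay in cluster 5 and 38.4% in cluster 8, led by Gzme, Gzmd and Gzmf. Cluster 3 was led by the Ly49 receptor genes Klra7, Klra1 and Klra6, cluster 0 by Tnfsf11 and cluster 1 by Gzma. Of the 692 cells of the Tcf7 arm, 541 held no Pdcd1, the PD-1 gene, at the gate. The Tcf7 arm is thus not a set of precursors of exhausted cells alone. The Foxp3 arm lay in cluster 10 (97.6%), whose leading genes also include Igha, a plasma cell gene. The T cell selection left other cells in the capture: the summed level of 8 T cell markers in macrophage-like and melanoma-like cells was 31.1% and 1.70% of that in CD8 cells. Melanoma markers in the other 6 main classes stood at 0.600% to 0.887% of their level in melanoma-like cells, where Tyr alone of 9 was near 0.

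To compare classes at equal depth, each cell was thinned at random to 10000 counts, and cells below that were left out (4.19% of the Tcf7 arm, 0.921% of the Havcr2 arm, 12.9% of CD4 cells without Foxp3 and 14.3% of melanoma-like cells). A level is the summed thinned count of a class per 1000000 counts (CPM), not divided by gene length, with an exact Poisson 95% interval that covers counting error only. The interval takes each count as independent, so it is too narrow if counts are reads, and it leaves out the spread between hashtags. Equal counts were not equal gene detection: a thinned cell showed a median of 1619 genes in the Tcf7 arm, 2079.5 in the Havcr2 arm, 2470 in macrophage-like and 2903 in melanoma-like cells. For this reason each main comparison is also given among cells with 1600 to 2200 genes. There is 1 capture and cells are not replicates, so no test was made; a member was called higher or lower at a 2-fold difference, the same count is given over all genes, and the sign is given per hashtag.

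At 10000 counts per cell, summed S-list levels were lowest in macrophage-like cells and the Tcf7 arm and highest in the Havcr2 and Gzmf arms. They stood at 1021 CPM in macrophage-like cells (interval 1005 to 1038), 1112 in the Tcf7 arm (1086 to 1137) and 1275 in melanoma-like cells (1254 to 1296). CD4 cells without Foxp3 stood at 1402, Foxp3 cells at 1884, the Havcr2 arm at 2047 (2018 to 2075) and the Gzmf arm at 2246 (2193 to 2299). The order of the S list changed with the matching and weighting of cells. With no thinning, deep cells weigh more and cells below 10000 counts are included. In that setting the Tcf7 arm stood at 1771, above melanoma-like cells at 1377. Among cells with 1600 to 2200 genes it stood at 1031, above melanoma-like cells (828.6) and Foxp3 cells (997.0), and CD4 cells without Foxp3 (1328) stood above the Gzmf arm (1291). At 10000 counts the order was not the same for the G2M list, where melanoma-like cells came last. Summed G2M levels were 1548 in melanoma-like cells (1525 to 1572), 1599 in macrophage-like cells (1578 to 1620), 1904 in the Tcf7 arm (1871 to 1938) and 2409 in CD4 cells without Foxp3. The Havcr2 arm stood at 3580 (3542 to 3618), the Gzmf arm at 3819 (3751 to 3889) and Foxp3 cells at 3924 (3853 to 3996). Of these 7 classes only the Gzmf arm and Foxp3 cells have overlapping G2M intervals, but these intervals do not show the spread between hashtags. Over hashtags the G2M level ran from 1229 to 1851 in melanoma-like cells and from 1179 to 2116 in macrophage-like cells. These 2 ranges overlap.

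**Figure D2:**
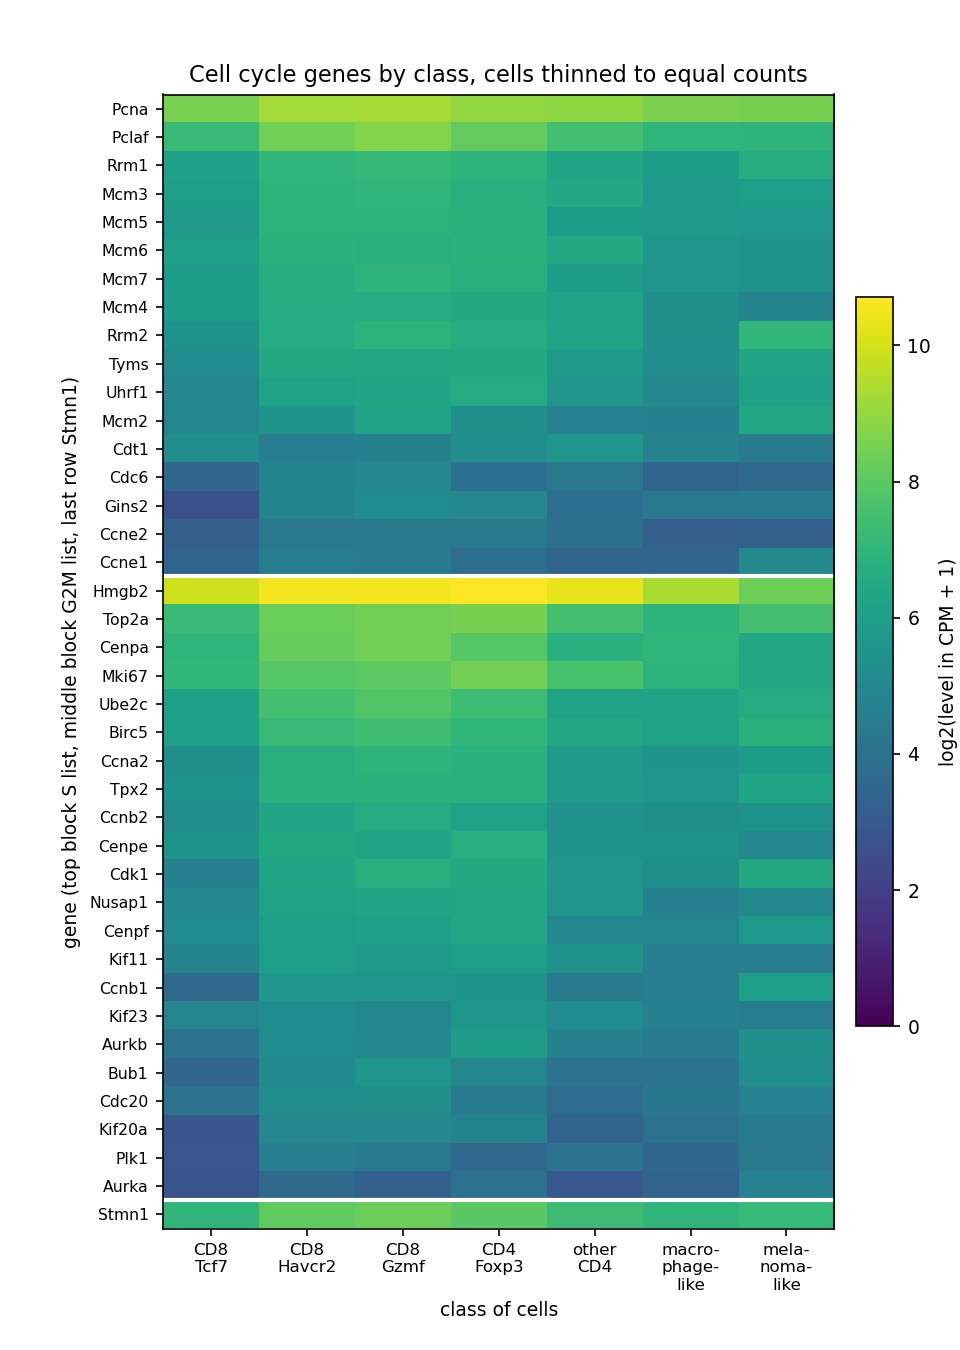
Level of each member (rows, S list above the first white line, G2M list between the lines, Stmn1 last) in 7 classes of cells (columns), as log2 of the level in CPM plus 1. The Havcr2, Gzmf and Foxp3 columns are brighter than the Tcf7 column for most genes. Hmgb2 and Pcna are the brightest rows of their lists, and Hmgb2 is dimmest in melanoma-like cells.

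Much of each sum came from 1 gene, as counts not divided by gene length. Pcna, the sliding clamp of the replication fork, supplied 30.1% of the S-list counts of CD8 cells, and Hmgb2, a chromatin protein that is also found in cells at rest, supplied 43.9% of the G2M-list counts. In melanoma-like cells Hmgb2 supplied 20.7%. With both left out, the ratio of S to G2M counts was 0.733 in CD8 cells and 0.744 in melanoma-like cells, while with both kept it was 0.588 and 0.824. Without these genes the 2 classes lay close together over all cells, but the hashtags disagreed. There the ratio without both genes ran from 0.521 (A0304) to 1.20 (A0302) in melanoma-like cells. In CD8 cells it ran from 0.682 (A0302) to 0.999 (A0303). In Foxp3 cells the ratio over all cells was the lowest of the 7 main classes either way, 0.480 with both genes and 0.612 without them.

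Cells were also counted by how many members they showed. A cell with at least 3 members of a list holding a thinned count was put in that phase class, which is a range of a per-cell count and not a cell type. In the Tcf7 arm 35.7% of 663 cells (interval 32.1 to 39.5) were in either phase class, in the Havcr2 arm 67.4% of 968 (64.3 to 70.3) and in the Gzmf arm 70.3% of 310 (64.9 to 75.4). Foxp3 cells stood at 58.4% (52.6 to 64.1) and CD4 cells without Foxp3 at 41.2% (37.3 to 45.2). Macrophage-like and melanoma-like cells stood at 55.7% and 57.7%, above the Tcf7 arm and CD4 cells without Foxp3 although their summed G2M levels were below both. Among cells with 1600 to 2200 genes macrophage-like cells stood below both, at 22.1% against 44.3% and 48.3%. Melanoma-like cells stood there at 41.3%, from 63 cells, with an interval of 29.01 to 54.4 that holds both of these shares. At that setting the order of melanoma-like cells against the Tcf7 arm and CD4 cells without Foxp3 is thus open. With barcodes holding markers of another class left out, macrophage-like cells stood at 30.2%, below the Tcf7 arm (36.0%) and CD4 cells without Foxp3 (44.5%). Neutrophil-like cells, a type that has left the cell cycle, stood at 10.3% of 58 cells (3.89 to 21.2), after 58.3% of them had been left out as too shallow, with a median depth of 9287 counts against 28980 in CD8 cells. Most of the difference between the CD8 arms lay in cells with both lists, 16.9% of the Tcf7 arm and 47.0% of the Havcr2 arm. The S-only share was 11.6% and 11.4% and the G2M-only share 7.24% and 8.99%, with overlapping intervals.

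**Figure D3:**
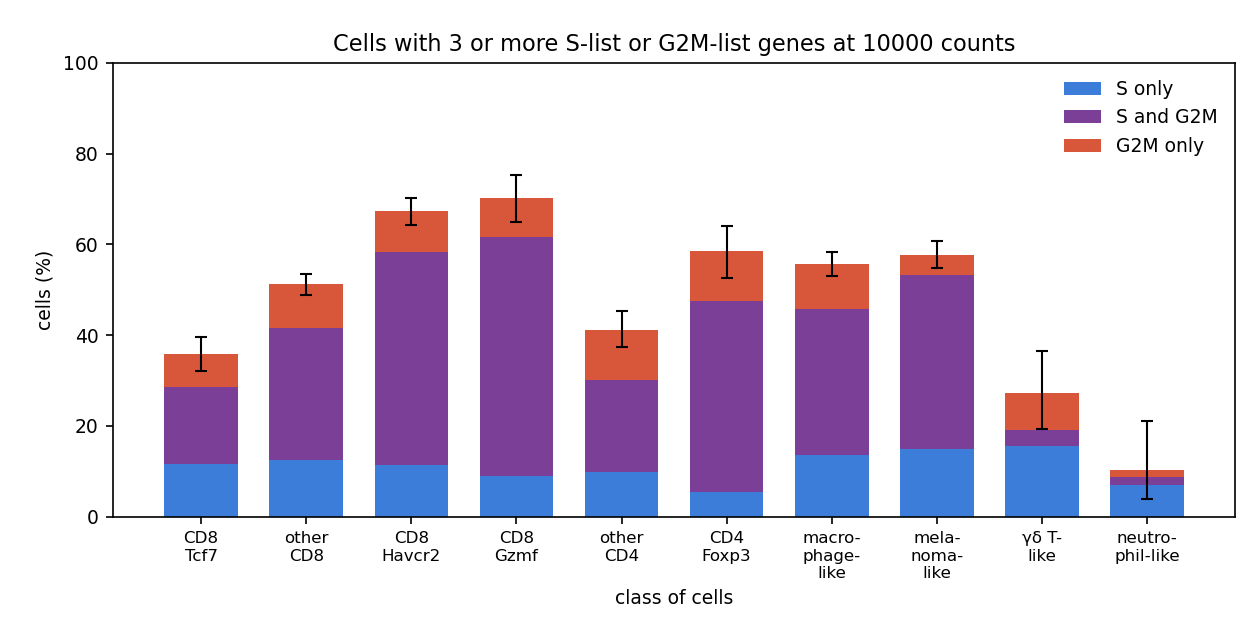
Share of thinned cells (in percent, vertical axis) with 3 or more S-list genes only, 3 or more of both lists, or 3 or more G2M-list genes only, in 10 classes of cells; error bars are exact binomial 95% intervals of the total. The total runs from 10.3% in neutrophil-like cells to 70.3% in the Gzmf arm, and the purple segment with both lists differs most between the CD8 arms.

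Many cells lay at the edge of the class, since 684 of 3765 CD8 cells showed exactly 2 S-list genes and 817 exactly 2 G2M-list genes. Without thinning the shares were 48.6% in the Tcf7 arm, 77.6% in the Havcr2 arm, 77.4% in macrophage-like and 82.4% in melanoma-like cells. Among cells with 1600 to 2200 genes they were 44.3% (38.0 to 50.6) in the Tcf7 arm, 56.9% (52.0 to 61.7) in the Havcr2 arm and 49.6% (40.5 to 58.7) in the Gzmf arm. Foxp3 cells (48.1%) and CD4 cells without Foxp3 (48.3%) were then level. Cells in a phase class also held more counts before thinning, a median of 47662 against 21167 in the other CD8 cells. The part of depth and of detected genes in these shares was not tested.

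Within CD8 cells the Havcr2 arm held more of nearly every member than the Tcf7 arm. Of 39 members with a mean level of at least 10 CPM, 26 were at least 2-fold higher and 0 lower, where 5.97% of all 8156 genes examined were higher and 5.64% lower. Of the 26, 25 had the same sign in all 4 hashtags with at least 20 cells in each arm, and Kif11 in 3. The median log2 ratio was 1.04 for the S list and 1.19 for the G2M list, against 0.03 over all genes. The summed S list differed by 0.88 and the summed G2M list by 0.91 on the log2 scale, both higher in the Havcr2 arm in 4 of 4 hashtags. In A0301 the S-list level was 1049 in the Tcf7 arm and 2064 in the Havcr2 arm, in A0304 1350 and 2488, in A0305 1094 and 2157, and in A0306 935.5 and 2194. The 2 arms did not overlap over these hashtags.

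**Figure D4:**
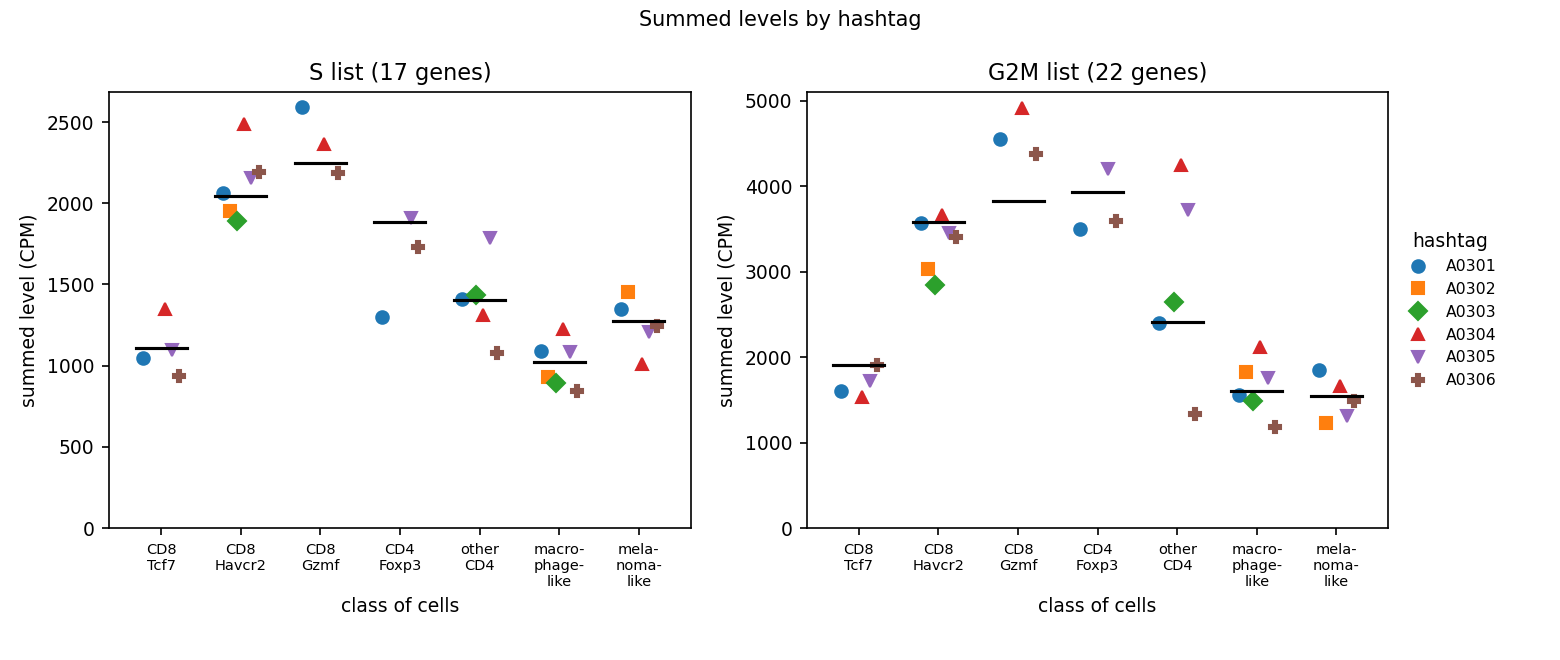
Summed level in CPM of the S list (left) and the G2M list (right) in 7 classes of cells; each symbol is a hashtag with at least 20 thinned cells in the class and each black line the level over all cells of the class, called for a hashtag or not. In the Tcf7 arm the hashtags sit between 935.5 and 1350 (S) and in the Havcr2 arm between 1889 and 2488, without overlap.

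Of the S list 9 of 17 members were called higher. Gins2, a subunit of the replicative helicase complex, had the largest ratio at 2.18, from 5.13 CPM in the Tcf7 arm to 26.9 in the Havcr2 arm. Over the hashtags A0301, A0304, A0305 and A0306 Gins2 stood at 5.47, 0, 2.13 and 14.5 in the Tcf7 arm and at 29.4, 39.5, 18.5 and 25 in the Havcr2 arm. All 4 values of the Havcr2 arm lay above all 4 of the Tcf7 arm. The cyclins of the G1/S switch were called with smaller ratios, Ccne1 at 1.07 and Ccne2 at 1.04. Cdc6 (1.27), which loads the helicase at origins, was called too. Among nucleotide enzymes Tyms, thymidylate synthase, stood at 1.32 and Rrm2, the small subunit of ribonucleotide reductase, at 1.12, while its large subunit Rrm1 stood at 0.89 and was not called. At the fork Pclaf, a PCNA-binding factor, stood at 1.19 and Uhrf1, which carries DNA methylation through replication, at 1.27, while Pcna itself stood at 0.64.

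The ring helicase was more even. Of Mcm2 to Mcm7 only Mcm5 was called, at 1.11, and the other 5 subunits stood between 0.61 (Mcm2) and 0.93 (Mcm3). Over the 4 hashtags Mcm5 stood at 44.5, 135, 55.3 and 50 in the Tcf7 arm and at 102.1, 169.7, 127.7 and 124.0 in the Havcr2 arm. The values of A0304 were the highest of both arms, and its Tcf7 arm held 20 cells. Cdt1, the loading partner of Cdc6, was the 1 member with a lower level in the Havcr2 arm, 23.2 CPM against 37.3, a log2 ratio of -0.66 with the same sign in 4 of 4 hashtags and short of the 2-fold limit. The span of Cdt1 overlaps the gene Gm20388 on the same strand, and Gm20388 and Gse1 overlap Gins2 on the other strand. Reads of Cdt1 and Gins2 may thus have been split with these genes, though exons were not compared.

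Of the G2M list 16 of 21 members examined were called higher and none was below 0. Aurka, the kinase of the spindle poles, was too low to be examined, at 5.88 and 11.98 CPM. The largest ratios were those of the mitotic kinesin Kif20a at 2.09 and the B-type cyclin Ccnb1 at 1.95. Ccnb1 stood at 15.6, 0, 2.13 and 6.45 CPM in the Tcf7 arm of A0301, A0304, A0305 and A0306 and at 59.4, 43.4, 50.8 and 46.9 in the Havcr2 arm. The arms were far apart in all 4. Its partner Cdk1 stood at 26.6, 50, 12.8 and 9.68 in the Tcf7 arm and at 95.1, 76.3, 72.3 and 62.5 in the Havcr2 arm, a pooled log2 ratio of 1.66. Ccna2, which serves S phase and mitotic entry, stood at 1.37 and Ccnb2 at 1.10.

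The kinases of mitotic entry and the checkpoint, Plk1 (1.73), Bub1 (1.55) and Aurkb (1.13), were all called, as were both members of mitotic exit, Cdc20 (1.16), the activator of the anaphase-promoting complex, and Ube2c (1.45), its ubiquitin carrier. At the kinetochore Cenpa, the centromeric histone, stood at 1.23, while Cenpe (0.97) and Cenpf (0.75) missed the limit. Spindle and midzone genes Tpx2 (1.33), Birc5 (1.23), Nusap1 (1.19) and Kif11 (1.17) were called and Kif23 (0.35) was not. Top2a, the topoisomerase that untangles sister chromosomes, stood at 1.05, and the proliferation marker Mki67 at 0.86. Mki67 ran from 101.6 to 220.0 CPM over the hashtags in the Tcf7 arm and from 223.7 to 304.6 in the same hashtags of the Havcr2 arm. Stmn1 stood at 1.06, from 129.0 to 270.7 CPM. Counts of Ccna2, Ccne2, Gins2, Mcm7, Ube2c, Pclaf, Nusap1, Cdc20 and Kif20a may hold reads of genes that overlap them on the other strand. No source used here says that counting kept the strand.

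Of 33 other S genes examined 11 were called higher and 0 lower, against the 5.97% and 5.64% of all genes, among them Tk1 (1.63), thymidine kinase, and Cdc45 (1.61), a part of the replicative helicase. Of 41 other G2M genes 13 were higher and 0 lower, led by Dlgap5 (1.77) and the kinetochore gene Nuf2 (1.53). Regulators were split: of 20, E2f1 (1.46), Cdk6 (1.44), Rbl2 (1.21) and Cdk2 (1.03) were higher and Myc (-1.34) was lower, and the inhibitors Cdkn2d (-0.93) and Cdkn1b (-0.86) missed the limit. Among cells with 1600 to 2200 genes, 253 of the Tcf7 arm and 420 of the Havcr2 arm, the S and G2M lists differed by less, 0.41 and 0.31, and 8 members were called higher. With no thinning 9 members were called higher. The median depth of the Tcf7 and Havcr2 arms was 23508.5 and 41795 counts. The T cell markers of the 2 arms stood at 5526 and 6921 CPM and melanoma markers at 0.777% and 0.635% of their level in melanoma-like cells; the part of depth and of these markers in the result was not tested.

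The Tcf7 arm was itself uneven. Its 150 cells that also held Pdcd1, the PD-1 gene, stood at 1826 CPM for the S list and 3879 for the G2M list, and its 513 cells without Pdcd1 at 903 and 1327. The shares in a phase class were 57.3% (49.0 to 65.4) and 29.4% (25.5 to 33.6). Tcf7 cells with Pdcd1 were thus nearer to the Havcr2 arm than to the Tcf7 cells without it, in depth too, with a median of 46302 counts against 21692. They lay below the Havcr2 arm in the S list (2047) and the phase share (67.4%). In the G2M list they lay above it, with an interval of 3780 to 3980 against 3542 to 3618. The higher G2M level of the Havcr2 arm over the whole Tcf7 arm thus does not hold for these cells.

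The Gzmf arm, cells with a granzyme of highly active killer cells, differed from the Havcr2 arm by 2-fold in no member. The 2 arms are not separate states: 59.0% of the Gzmf arm lay in the main cluster of the Havcr2 arm, and its gate allowed Havcr2. Of 40 members 0 were called in either direction, where 0.892% of 7958 genes were higher and 0.905% lower. The S lists differed by 0.13 (higher in 1 of 3 hashtags, which ran from -0.07 to 0.33) and the G2M lists by 0.09 (3 of 3). Within the 3 hashtags the G2M difference ran from 0.35 to 0.42, above the value over all cells, which include barcodes called for no hashtag. Among cells with 1600 to 2200 genes the S and G2M lists differed by -0.08 and 0.12. The largest ratios were Mcm2 at 0.63, a helicase subunit, with the same sign in 3 of 3 hashtags, and Bub1 at 0.48. Mcm2 stood at 112.2, 58.3 and 59.3 CPM in the Gzmf arm of A0301, A0304 and A0306 and at 37.8, 55.3 and 41.7 in the Havcr2 arm. Only A0301 showed a wide gap. The Gzmf arm of these 3 hashtags held 24 to 41 cells, which limits what can be seen, and Aurka was at 0 in A0306.

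Foxp3 cells held more of the mitotic genes than other CD4 cells when cells were matched for counts, and not when they were matched for detected genes. Between Foxp3 cells and CD4 cells without Foxp3, 11 of 40 members were called higher and 0 lower, where 4.54% of 8287 genes were higher and 4.84% lower. Of these 11, 10 had the same sign in 3 of 3 hashtags. By list, 10 were of the G2M list and 1, Gins2 (1.21), of the S list. The summed G2M list differed by 0.70 (higher in 3 of 3 hashtags) and the S list by 0.43 (2 of 3). The 10 G2M members were Kif20a (1.44), Cenpf (1.42), Cenpe (1.21), Ube2c (1.21), Aurkb (1.19), Ccnb1 (1.16), Cenpa (1.13), Aurka (1.08), Ccna2 (1.07) and Tpx2 (1.06), which act from mitotic entry to cytokinesis, and all 3 kinetochore members were among them. Plk1 stood at -0.41 and Cdc6 at -0.42, both short of the limit.

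The hashtags disagreed on the size. The G2M level was 3495 in Foxp3 cells and 2396 in the others in A0301, 4194 and 3723 in A0305, and 3594 and 1330 in A0306. The gap was widest in A0306, whose CD4 cells without Foxp3 were the lowest of 5 hashtags; those of A0304 stood at 4240, from 20 cells. Among cells with 1600 to 2200 genes the direction turned: Foxp3 cells stood at 997.0 (S) and 2270 (G2M) and the others at 1328 and 2547, log2 ratios of -0.41 and -0.17, with 3 members called higher and 3 lower. With no thinning 2 members were called higher. Macrophage markers stood at 923.3 CPM in Foxp3 cells and 287.0 in the others, of which Ccr2, a chemokine receptor that T cells also use, made up 849.7 and 203.1; plasma cell markers stood at 25.3 and 367.7, and the median depth was 32440.5 and 18879 counts. Their part in the result was not tested. With barcodes holding markers of another class left out, 170 of 296 Foxp3 cells stayed and stood at 2440 (S) and 4422 (G2M). In the same way 485 of 616 CD4 cells without Foxp3 stayed and stood at 1481 and 2581. This filter counts Ccr2 as a macrophage marker, so it can also remove Foxp3 cells that express Ccr2 themselves. Of 33 other S genes 2 were called higher, of 42 other G2M genes 3 and of 21 regulators 0, shares near the 4.54% of all genes.

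CD8 cells as a whole and CD4 cells without Foxp3 were close. Of 39 members 1 was called higher, Cenpa at 1.07 with the same sign in 5 of 5 hashtags, and 0 lower, where 1.83% of 8252 genes were higher and 3.31% lower. Cenpa stood at 212.9, 187.3, 277.1, 208.3 and 231.2 CPM in the CD8 cells of A0301, A0303, A0304, A0305 and A0306 and at 182.1, 96.6, 165.0, 190.6 and 84.2 in the CD4 cells. The CD8 value was above the CD4 value in every hashtag, and the 2 ranges overlapped narrowly. The S lists differed by 0.29 (4 of 5 hashtags) and the G2M lists by 0.27 (2 of 5), and among cells with 1600 to 2200 genes by 0.06 and -0.10. Among regulators E2f7, a repressor of E2F genes, was lower in CD8 cells at -1.23.

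Melanoma-like cells differed from CD8 cells in single genes in both directions. Of 40 members 3 were called higher and 8 lower, where 24.4% of 9009 genes were higher and 23.7% lower, so that both shares of the members were below those of all genes. The 3 higher were Aurka (1.55), Ccne1 (1.03) and Ccnb1 (1.009). Ccne1 stood at 30.2, 52.8, 30.2, 27.3 and 24.5 CPM in the melanoma-like cells of A0301, A0302, A0304, A0305 and A0306 and at 20.7, 17.5, 15, 13.04 and 17.8 in their CD8 cells. Every melanoma-like value lay above every CD8 value. Aurka stood between 13.9 and 34.9 in the melanoma-like cells and between 3.09 and 11.04 in the CD8 cells of the same hashtags.

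The 8 lower were Hmgb2 (-1.99), the helicase subunits Mcm4 (-1.55) and Mcm6 (-1.11), Cenpa (-1.51), Mki67 (-1.29), Pclaf (-1.17), Kif11 (-1.11) and Cenpe (-1.05). Mki67 stood between 76.4 and 81.4 CPM over the 5 melanoma-like hashtags, a narrow range, and between 196.5 and 228.4 in their CD8 cells. Subunits of 1 complex went apart, since Mcm2 was at 0.91 and Mcm4 at -1.55, and so did the reductase, Rrm2 at 0.78 and Rrm1 at -0.12. The summed S list differed by -0.42 and the G2M list by -0.91, lower in 5 of 5 hashtags, and without Pcna and Hmgb2 by -0.39 and -0.41. The other S genes summed lower too, by -0.53 (5 of 5 hashtags). The other G2M genes did not: their sum was higher by 0.14 (3 of 5), with a median ratio of -0.02. Of 44 examined, 5 were called higher and 2 lower, against 24.4% and 23.7% of all genes. The lower G2M level thus describes the listed members and not the other G2M genes. Of 24 regulators 8 were called higher, among them Ccnd1 (5.94), the D-type cyclin of many solid tumours, Cdk2 (4.35), Myc (1.82) and Cdk4 (1.26), and 5 lower, among them Rbl2 (-3.82), Cdk6 (-2.91) and E2f4 (-2.59); over all genes 24.4% were higher and 23.7% lower, and nothing is read from these counts. The counts for melanoma-like cells changed with the settings, since with another random draw 1 member was called higher, with no thinning 1 higher and 16 lower, and among cells with 1600 to 2200 genes (63 melanoma-like) 5 higher and 15 lower.

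Macrophage-like barcodes held less of every member examined than CD8 cells. Of 39 members 0 were called higher and 6 lower, where 12.8% of 8504 genes were higher and 8.91% lower, and all 39 ratios were below 0. The 6 were Nusap1 (-1.21), Pclaf (-1.12), Mcm4 (-1.09), Top2a (-1.09), Kif11 (-1.07) and Cdc6 (-1.02). The S lists differed by -0.74 and the G2M lists by -0.86, lower in 6 of 6 hashtags, and among cells with 1600 to 2200 genes by -1.50 and -2.08. Top2a stood between 74.8 and 162.0 CPM in macrophage-like barcodes over the 6 hashtags and between 206.3 and 310.4 in CD8 cells, without overlap. Of 21 regulators 2 were called higher, Ccnd1 (5.12) and the inhibitor Cdkn1a (2.39), p21, and 2 lower. With 12.8% of all genes higher and 8.91% lower, nothing is read from these counts.

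Members were higher in the macrophage-like barcodes that held more T cell reads. Barcodes with no T cell marker count stood at 619.8 CPM for the S list and 852.6 for the G2M list, and 29.2% (24.2 to 34.6) were in a phase class. The 429 barcodes with 30 or more such counts stood at 1310 and 2485, and 72.0% (67.5 to 76.2) were in a phase class, while their macrophage markers stood at 8034 CPM against 22104 in barcodes with none. The part of T cell reads in the macrophage-like levels was not tested. In the 430 barcodes with at most 2 T cell marker counts the S list differed by -1.48 and the G2M list by -1.80 on the log2 scale from CD8 cells free of other markers. Mki67 stood there at 110.9 and Top2a at 57.0 CPM, and Stmn1 at 74.2. Barcodes with few T cell reads were also shallower, with a median of 48777 counts against 93673 at 30 or more.

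**Figure D5:**
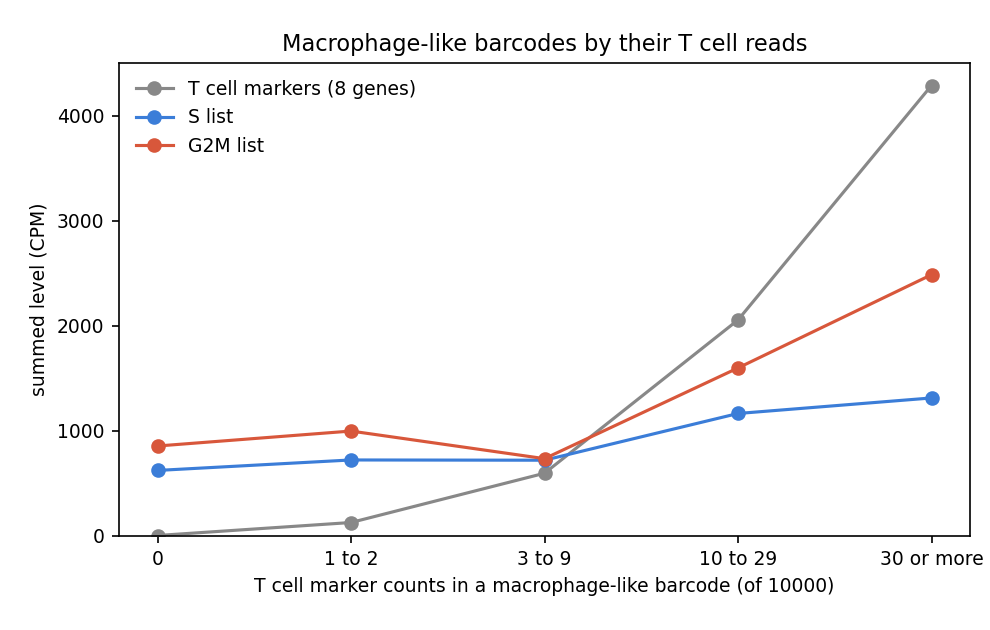
Summed level in CPM (vertical axis) of T cell markers, the S list and the G2M list in macrophage-like barcodes grouped by their number of T cell marker counts in 10000 (horizontal axis). Both lists stay between 619.8 and 995.1 up to 9 counts and are higher from 10 counts on, up to 1310 and 2485.

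Within CD8 cells members of the G2M list tracked their own list, and members of the S list did so by a smaller margin. Over 3765 thinned cells, Pearson's r of each member with the sum of the other members of its own list was higher than that with the other list for all 22 G2M members and for 15 of 17 S members. These values describe cells of 1 capture that share their library, and low counts pull them towards 0. The median r was 0.48 with the own list and 0.29 with the other for the G2M list, and 0.38 and 0.33 for the S list. The exceptions were Pclaf, with 0.71 for the G2M list and 0.60 for the S list, and Cdt1, with 0.11 and 0.10. Among the 15 were near ties: Rrm1 stood at 0.463 with the S list and 0.460 with the G2M list, Rrm2 at 0.488 and 0.480, and Tyms at 0.384 and 0.367. The r of Pclaf with the G2M sum was thus as high as those of Hmgb2 (0.67), Mki67 (0.65) and Top2a (0.65), although its textbook place is at the replication fork. These values are not ranked, since Pclaf was set against all 22 G2M members and each G2M member against a sum without itself. For Hmgb2 that sum lacks the gene with 43.9% of the G2M-list counts. Stmn1 stood at 0.67 with the G2M list and 0.59 with the S list. Ube2c (0.55 and 0.29), Ccnb2 (0.52 and 0.30) and Cenpf (0.46 and 0.24) leaned most clearly to the G2M list, and Mcm3 (0.33 and 0.44) and Mcm5 (0.38 and 0.48) to the S list.

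The genes outside all lists that were most like the S sum in these cells were Ptma (0.52), Hmgn2 (0.48), Ran (0.45), Ppia (0.44), Gm13237 (0.44), Ranbp1 (0.44), Gm20875 (0.42), Ezh2 (0.42), Hmgb1 (0.42) and Anp32b (0.42). Those most like the G2M sum were Gm13237 (0.67), Gm20875 (0.66), Hmgn2 (0.61), Gm7931 (0.51), Tuba1c (0.51), Ptma (0.49), Gm8203 (0.49), Ran (0.49), Hmgb1 (0.48) and Ppia (0.46). Hmgn2, a nucleosome-binding protein, and Ptma, a histone-binding one, stood in both sets. The 4 genes with a Gm name are pseudogenes in RefSeq and may share reads with the genes they copy, so they are uncertain. Histone genes, kept apart, were led by Hist1h2ao at 0.53 with the S sum and 0.61 with the G2M sum.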

How the data were processed

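The authors deposited whole-number counts per gene and barcode for 1 mRNA library, with a second library of hashtag counts. Per the submitters' processing notes, cutadapt 2.10, Bowtie2 2.3.4.1 and 2.4.2, R 3.5.3 and build GRCm38 were used, with no roles given. No label or header states whether molecular identifiers were collapsed, and with a median non-zero count of 7 the counts were treated as reads. Members and lists were chosen with earlier results of these data known.

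Barcodes with at least 500 genes and at most 25% mitochondrial counts were clustered in scanpy 1.11.5 (Leiden resolution 1, 40 components, 20 neighbours, 2988 variable genes without cell cycle and histone genes) and named from marker lists. The naming rule was tightened after the clusters were seen. T cell gates were at 5 raw counts. Hashtags were called by likelihood over a background mixture with a margin of 3, for 6161 barcodes of 6 hashtags; each hashtag is a sample of unknown group. Levels used a pseudocount of 1 CPM, genes with a mean level of at least 10 CPM and a call at a log2 size of 1. The scripts were checked on simulated counts. Scrublet marked 1 barcode at its own threshold, so it had not worked, and doublets were kept in the main values. The named genes were all 40 members, up to 10 genes of each other list with the largest ratios, and the 10 genes outside the lists with the highest correlation with each sum. Alternatives were other depths, gates, filters, clusters, pseudocounts, presence and member cuts, doublet removal and leaving out hashtags.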

Additional observations from a re-analysis of the deposited data

Results flagged for a closer look

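The share of Havcr2-arm cells in a phase class was 45.45% in hashtag A0303, from 44 cells, against 65.0% to 73.7% in the other 5 hashtags. Its distance to the nearest other hashtag, relative to the range of all 6, set it apart from them. The same hashtag had the lowest summed levels of this arm, 1889 CPM for the S list and 2841 CPM for the G2M list. Of 21 sets of hashtag values checked 1 stood out this way, and chance gives about 1 in 20. A0303 had too few Tcf7-arm cells to enter the comparison of the 2 arms.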

How the results depend on the processing

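Of 450 recomputed list ratios, member counts and ratios of phase shares, 399 stayed on their side of the 2-fold limit (counts within 1.5 times), 31 counts moved, 20 ratios passed the limit and 0 past it were reversed; the cause was not tested. Of 104 recomputed phase shares of single classes 54 moved and 50 did not. Ratios short of the limit changed sign at 1600 to 2200 genes for Foxp3 cells (-0.41 and -0.17), the Gzmf arm (S, -0.08) and CD8 against CD4 cells (G2M, -0.10). So did the Gzmf arm in the G2M list with no thinning (-0.05) and, under several settings, the small phase share ratios of the Gzmf arm and of Foxp3, melanoma-like and macrophage-like cells. The Havcr2 and Tcf7 arms differed in the G2M list by 1.12 with gates on thinned counts, 1.06 without the 5% highest doublet scores and 1.18 without Hmgb2. Their members higher numbered 11 at 20000 counts, 9 with no thinning, 16 with gates at 10 counts, 16 with a pseudocount of 10 and 8 at 1600 to 2200 genes. The log2 ratio of their phase shares was 1.14 at 5000 counts, 1.06 with gates on thinned counts, 1.00 without doublet scores, 1.18 with presence at 2 counts and 1.38 with a cut at 5 members. Gzmf against Havcr2 gave 1 member higher at 1600 to 2200 genes, and 1 lower there and at 5000 counts. Foxp3 cells had 2 members higher at 20000 counts and with no thinning, 4 with a pseudocount of 10, and 3 higher and 3 lower at 1600 to 2200 genes. CD8 against CD4 cells gave 2 higher at 5000 counts and 0 with no thinning or gates at 10. Melanoma-like cells differed from CD8 cells in the G2M list by -1.20 at 20000 counts, -1.33 with no thinning, -1.07 with no cell filter, -1.04 without barcodes holding other markers and -1.18 at 1600 to 2200 genes. Members higher numbered 1 at 20000 counts, with no thinning, no cell filter or another draw, 0 with a pseudocount of 10 and 5 at 1600 to 2200 genes; members lower numbered 15, 16 with no thinning, 5 with a pseudocount of 10 and 15 at 1600 to 2200 genes. Macrophage-like barcodes differed in the S list by -1.48 without other markers and -1.50 at 1600 to 2200 genes, and in the G2M list by -1.17 at 20000 counts, -1.04 with no thinning, -1.80 without other markers and -2.08 at 1600 to 2200 genes. Members lower numbered 24 at 20000 counts, 16 with no thinning, 31 without other markers, 2 with a pseudocount of 10 and 31 at 1600 to 2200 genes, where the phase share ratio was -1.29. Leaving out 1 hashtag gave 0.85 to 0.89 (S) and 0.86 to 0.93 (G2M) for the Havcr2 and Tcf7 arms and 0.39 to 0.53 and 0.65 to 0.77 for Foxp3 cells. The settings without Hmgb2 and Pcna, by genes and by draw were chosen after seeing the data. No paired analysis was possible because no value comes from a test; differences within hashtags are given as signs and ranges only.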

Other observations

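Classes outside the main comparisons spread widely in the module. T cells with neither Cd4 nor Cd8 at the gate stood at 867.4 CPM for the S list and 1211 CPM for the G2M list, with 26.5% of 1972 cells in a phase class. Gamma delta T-like cells stood at 663.6 and 789.1 CPM and 27.3% (19.2 to 36.6), and dendritic-like cells at 1148 and 1436 CPM and 47.2%. CD8 cells outside the 3 arms stood at 1662 and 2771 CPM and 51.2%, between the Tcf7 and the Havcr2 arm. These gates need reads, and T cells with neither gene had a median depth of 14478 counts.

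With cell cycle genes kept in the clustering, 1 cluster of 1047 T cells was led by the histone gene Hist1h2ao and by Pclaf, with Ccna2, Nusap1, Ube2c, Mki67 and Top2a among its leading genes. Its median depth was 63561 counts, against 26436 over all barcodes kept. Such a cluster was not particular to that setting. With no cell filter and the cell cycle and histone genes left out, 1 cluster of 1383 T cells was also led by Pclaf and Hist1h2ao. Ccna2 and Ube2c were among its leading genes, and its median depth was 52902 counts.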
